A study of Mus musculus with 29 samples.

Results

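The interaction of trauma and phenotype asks whether the difference between libraries with and without trauma was the same in Sus-T and Res-T mice. It was computed for the amygdala from every amygdala library with a column of values, 13 of the 29 samples in the series and 13 of its 14 amygdala samples. Sus-T without trauma replicate 2 was not analysed here. The groups were Res-T without trauma (3 libraries), Sus-T without trauma (2 libraries, replicates 1 and 3), Res-T with trauma (4 libraries) and Sus-T with trauma (4 libraries). All mice, those without trauma included, were of the transgenic line B6.Cg-Tg(Thy1-YFP)HJrs/J, in which the Thy1 promoter drives a yellow fluorescent protein in a subset of projection neurons. Cells were sorted from dissociated amygdala punches, and total RNA was made into paired-end libraries with a kit for ultra-low input that removes ribosomal RNA. The labels used here do not spell out Res-T and Sus-T, the kind of trauma or the age of the mice, and the title of the series speaks of inefficient fear extinction. The design text counts 9 mice for the amygdala, below the number of libraries, and the labels do not say which libraries came from separate mice. P-values therefore measure the spread between these libraries, which may be partly technical, and are too small if libraries share a mouse.

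The amygdala is a forebrain region that stores associations between cues and threat. Its pyramidal neurons are excitatory projection cells that change synaptic strength during fear learning and during extinction, the learning that a cue no longer predicts harm. Calcium entry through glutamate receptors activates kinases such as CaMKII at the postsynaptic density, and kinases and activity-dependent transcription factors then adjust receptors, the spine cytoskeleton and protein synthesis. Oligodendrocytes wrap the axons of such neurons in myelin, a membrane rich in sphingolipids, cholesterol and a few abundant proteins.

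The values were a signal in arbitrary units as deposited by the authors, with library totals from 3267967 to 4021272 over 9872 genes, and the read depth is unknown. The sorted cells were labelled as pyramidal neurons, but of 20 pyramidal neuron markers only 8 were among the genes analysed here, and Slc17a7, Slc17a6, Tbr1 and Neurod6 were among those that were not, nor were Thy1, Rbfox3 and Snap25. Oligodendrocyte transcripts were present in every library, with Opalin, a membrane protein of mature oligodendrocytes, between 218 and 1726. The libraries labelled Res-T without trauma stood apart in their values. After subtraction of 1 and centring of the logarithms by gene, the 13 libraries lacked 1 dimension of variation, in which these 3 libraries had weights of at most 0.00012 of a total of 1 and the other 10 had 0.00696 to 0.276. Variation that is missing from the values lowers the spread between replicates, so p-values may be too small for this reason as well.

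Trauma differences ran in opposite directions in the phenotypes for the genes that passed the test. In limma, a linear model fitted across all genes, 665 of 9872 genes (6.74%) had an interaction with an adjusted p below 0.05, and such genes are termed called here. Of these, 470 (4.76%) were positive, with a trauma difference more positive in Sus-T than in Res-T, and 195 (1.98%) were negative. At an unadjusted p below 0.05 there were 2336 genes (23.7%). All 470 positive genes had a lower mean with trauma in Res-T and a higher mean with trauma in Sus-T. Of the 195 negative genes 188 did the reverse, and 59.5% of all genes had opposite signs in the phenotypes. Selection on the interaction favours opposite signs, so these counts describe the called genes and are no further evidence. The positive genes had a median interaction of 1.52 on the log2 scale, made of a median trauma difference of -0.73 in Res-T and 0.80 in Sus-T. For the negative genes the median interaction was -1.54, with 1.13 in Res-T and -0.45 in Sus-T, and all genes together had a median of 0.02. An interaction of at least 2-fold was found in 432 positive and 188 negative genes, and one of at least 4-fold in 110 and 32.

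**Figure D1:**
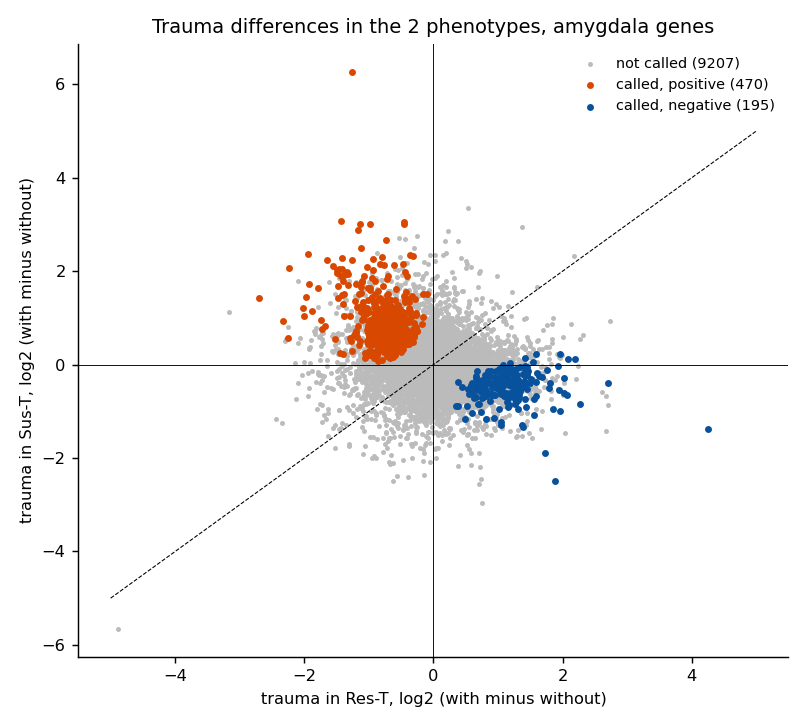
Trauma difference in Res-T (horizontal axis) against that in Sus-T (vertical axis), each as the log2 mean with trauma minus without, for 9872 amygdala genes; the dashed line marks equal differences and colours mark the 470 positive and 195 negative interactions called by limma. The positive genes lie at the upper left and nearly all negative genes at the lower right, as the counts of opposite signs state (470 of 470 and 188 of 195).

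The same contrast can be read as a gap between phenotypes that was wide without trauma and narrow with it. Without trauma the median difference of Sus-T minus Res-T was -1.65 among the positive genes and 1.87 among the negative genes. With trauma these medians were -0.12 and 0.34. The gap was smaller with trauma in 469 of 470 positive and in 195 of 195 negative genes, and in 76.8% of all genes. The called genes were selected on the change in this gap, so their counts are a description and no further evidence. The Sus-T and Res-T libraries did not overlap without trauma in 470 positive and 194 negative genes, where the share over all genes was 58.9%. With trauma they did not overlap in 31 positive genes (6.60%) and 45 negative genes (23.1%), against 5.75% of all genes. Within Res-T, libraries with and without trauma did not overlap in 384 positive and 178 negative genes (23.1% of all genes), and within Sus-T in 407 and 81 (20.4% of all genes). Smaller groups are apart more often by chance, and the groups differed in size. These shares can therefore not be compared between the conditions or between the phenotypes. Passing the single tests was uneven. In Res-T, trauma called 610 genes (6.18%), of which 326 rose (3.3%) and 284 fell (2.88%), and among them were 195 positive genes, which fell, and 155 negative genes, which rose. In Sus-T, trauma called 3 genes (0.0304%), of which 2 were positive genes, a model of Zc3h11a and Apod. Sus-T minus Res-T called 2706 genes without trauma (27.4%), including 467 positive genes that were lower in Sus-T and 194 negative genes that were higher. With trauma limma called 0 genes, and 1141 (11.6%) had an unadjusted p below 0.05.

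Ccp110, which encodes a protein that caps centrioles, had the smallest p of the positive genes apart from the divided model of Zc3h11a described further on. It is annotated at chr7:118712552-118737024 (GRCm38, plus strand). Its signal was 6086, 5422 and 6031 in Res-T without trauma and 3143, 2425, 2656 and 2847 in Res-T with trauma. In Sus-T it was 973 and 1457 without trauma and 2459, 2655, 2041 and 2431 with trauma. The libraries without trauma were thus the extremes, high in Res-T and low in Sus-T, and the phenotypes overlapped with trauma. The interaction was 2.09 ± 0.25 (log2 ± standard error, adjusted p = 0.00097 in limma). Ccp110 fell 2.12-fold with trauma in Res-T (adjusted p = 0.00497), and in Sus-T the log2 difference was 1.002 (adjusted p = 0.0517).

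Prickle1, a planar cell polarity gene that helps to shape neurites, had 1285, 1023 and 1054 in Res-T without trauma and 565, 609.6, 437 and 606 with trauma. In Sus-T it had 312 and 385 without trauma and 691, 689.5, 628 and 631 with trauma. All 4 Sus-T libraries with trauma lay above all 4 Res-T libraries with trauma, so here the order of the phenotypes turned around, although the difference with trauma did not pass (log2 0.26, adjusted p = 0.535). The interaction was 1.94 ± 0.25 (adjusted p = 0.00134). The 250 bases before its RefSeq start site (GRCm38.p6, chr15:93595903-93596152, minus strand) are shown because they hold, in capitals, 1 match to the binding motif of the activity-induced EGR factors, beginning 112 bases before the start, 5′ to 3′.
Prickle1: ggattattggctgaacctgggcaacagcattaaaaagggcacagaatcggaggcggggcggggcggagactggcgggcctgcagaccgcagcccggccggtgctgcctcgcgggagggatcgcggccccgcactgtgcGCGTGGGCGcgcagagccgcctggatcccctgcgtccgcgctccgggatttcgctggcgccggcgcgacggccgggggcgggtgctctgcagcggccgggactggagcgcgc

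Plekha1, an adaptor that binds a phosphoinositide at the plasma membrane, measured 3108, 3799 and 3072 in Res-T without trauma and 1497, 1721, 1665 and 1659 with trauma. In Sus-T its signal was 929 and 1072 without trauma and 1849, 1865, 1412 and 1595 with trauma. The phenotypes were apart without trauma and intermingled with it (interaction 1.76 ± 0.23, adjusted p = 0.00135). Unc5c, a netrin receptor of axon guidance, showed 1228, 1564 and 1323 in Res-T without trauma and 740.0, 595, 733 and 681 with trauma. Its Sus-T libraries had 245 and 416 without trauma and 775, 823, 598 and 610.4 with trauma (interaction 2.11 ± 0.29, adjusted p = 0.0022). Within each phenotype the libraries with and without trauma did not overlap for these genes.

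Other leading positive genes were likewise apart without trauma. With trauma the phenotypes overlapped for Slc24a2, Dock10 and Sytl2 but not for Ptprd and Map7, which stayed lower in Sus-T. For Ptprd and Map7 the difference with trauma did not pass (adjusted p = 0.443 and 0.326). Ptprd, a receptor phosphatase that organises synapses, had an interaction of 1.60 and fell 1.88-fold with trauma in Res-T (adjusted p = 0.006). Slc24a2, a potassium-dependent sodium-calcium exchanger, had 1.69 and fell 1.92-fold, and Map7, a microtubule-associated protein, had 1.57 and fell 1.98-fold. Dock10, an exchange factor for small GTPases, had 1.82, and Sytl2, a synaptotagmin-like protein of vesicle transport, had 1.98. In Sus-T the trauma differences of these 5 genes lay between 0.58 and 0.86 and none passed (adjusted p from 0.0863 to 0.144). Exons of Unc5c, Ptprd and Map7 overlap antisense transcripts, and whether the counting used strand is not given in the sources used here, so their values may include reads of those transcripts.

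**Figure D2:**
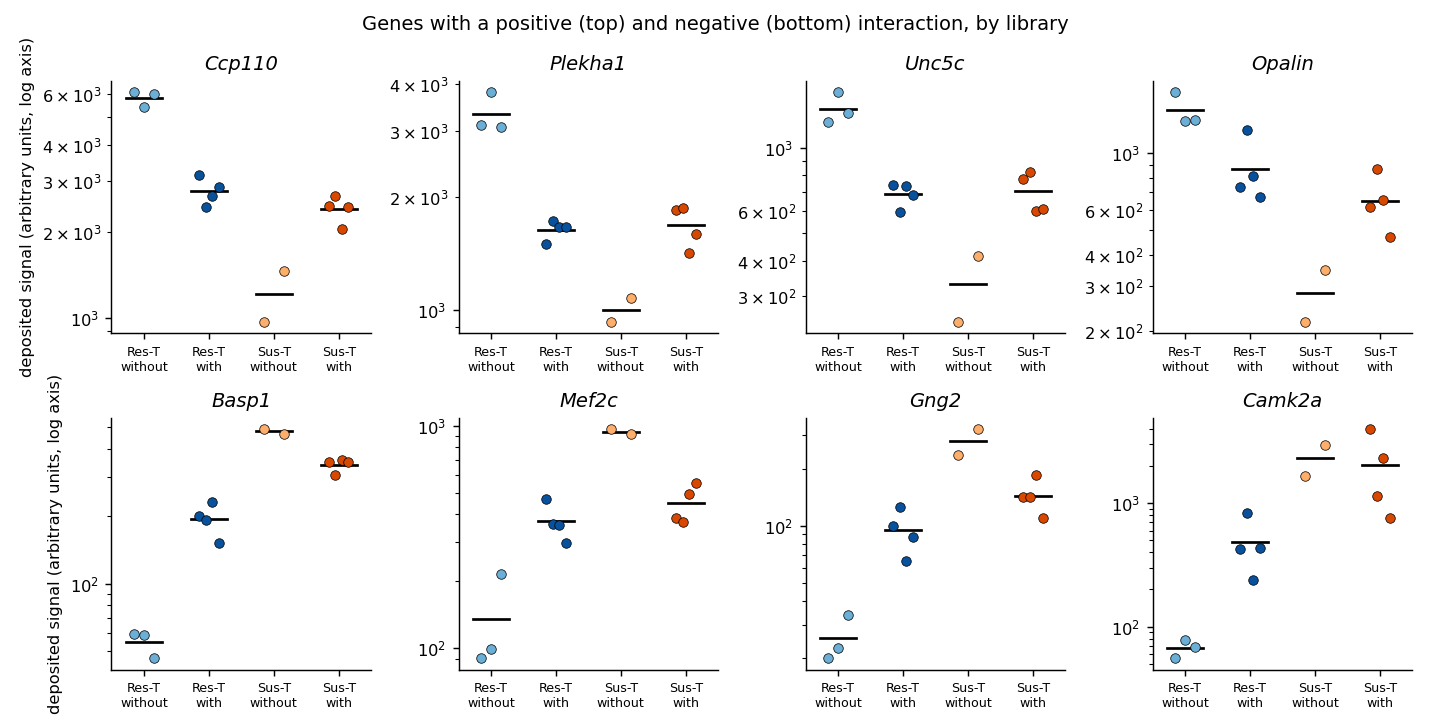
Deposited signal (arbitrary units, logarithmic axis with a range of its own in each panel) of 4 genes with a positive interaction (top) and 4 with a negative one (bottom); each point is 1 library and each bar the group mean. In every panel the groups without trauma lie furthest apart and the groups with trauma lie closer together, between 2425 and 3143 in Res-T and 2041 and 2655 in Sus-T for Ccp110.

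Markers of oligodendrocytes had the highest share of positive calls among the 32 gene lists. Of 32 measured markers 21 were positive and 0 negative, against 4.76% and 1.98% of all genes, and the remaining 11 had positive estimates that did not pass. The median of the list was 1.67. Opalin had 1726, 1332 and 1344 in Res-T without trauma and 739, 1231, 815 and 670.3 with trauma. Its Sus-T values were 218 and 348 without trauma and 613, 863, 653 and 468 with trauma (interaction 1.99 ± 0.36, adjusted p = 0.00529). Both Sus-T libraries without trauma lay below every other library. Hapln2, a matrix link protein of the nodes of Ranvier, had an interaction of 2.90, Myrf, the transcription factor that drives myelin genes, 2.01, and Mag, a myelin adhesion protein, 1.79. Tmem88b (1.99) and Adamts4 (1.66), the latter a matrix protease, led the list by p. Mbp, the basic protein of myelin, had an interaction of 0.66 ± 0.36 that did not pass (adjusted p = 0.28), with values from 17761 to 47376. The arms of this list were unlike those of the top genes. With trauma 4 of 32 markers fell in Res-T, against 2.88% of all genes, and 1, Apod, rose in Sus-T, where 2 of all 9872 genes rose. Without trauma 29 of 32 were lower in Sus-T than in Res-T, against 15% of all genes.

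Genes of membrane lipids moved in part with the markers, while most markers of oligodendrocyte precursors had estimates of the other sign. Of 38 enzymes and carriers of sphingolipids and cholesterol, 5 were positive and 1 negative (median 0.12), or 15.8% against 6.74% of all genes. Fa2h and Ugt8a, which make the hydroxylated and galactosylated lipids of myelin and are also in the oligodendrocyte list, had 1.29 and 1.39. Asah2, a neutral ceramidase, had 1.60, Npc1, a cholesterol exporter of lysosomes, 1.17, and Abca2, a lipid transporter, 1.21, while Cers6, a ceramide synthase, had -2.31. Among 6 precursor markers Enpp6, a choline phosphodiesterase of newly formed oligodendrocytes, was positive at 2.66, from 958, 1575 and 918 in Res-T and 93.9 and 231 in Sus-T without trauma to 318 to 651 over all 8 libraries with trauma. The other 5 precursor markers had negative estimates, and the median was -0.78. The 1 called member is 16.7% of this short list, against 6.74% of all genes.

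The negative genes were led by Basp1, a membrane protein of growth cones and nerve terminals (chr15:25363277-25413764, minus strand). Its signal was 59.5, 58.8 and 46.4 in Res-T without trauma and 199.9, 192, 233 and 152 with trauma. In Sus-T it was 491 and 469 without trauma and 352, 305, 357 and 349 with trauma. The 4 groups did not overlap at all, and the phenotypes remained apart with trauma, with Sus-T higher in 4 of 4 libraries. The difference with trauma did not pass for Basp1 (log2 0.82, adjusted p = 0.0871). Its interaction was -2.29 ± 0.30 (adjusted p = 0.00134), made of a 3.47-fold rise with trauma in Res-T (adjusted p = 0.000444) and a log2 difference of -0.50 in Sus-T (adjusted p = 0.389).

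Mef2c, an activity-dependent transcription factor that limits synapse number, had 90.2, 98.8 and 216 in Res-T without trauma and 466, 363, 359 and 298 with trauma. In Sus-T it had 963 and 913 without trauma and 386, 370.4, 491 and 554 with trauma. With trauma the phenotypes overlapped (interaction -2.63 ± 0.40, adjusted p = 0.00265), and Mef2c rose 2.93-fold with trauma in Res-T (adjusted p = 0.006). Gng2, a G protein gamma subunit, had 19.9, 22.5 and 33.6 in Res-T without trauma and 65.0 to 126 with trauma. In Sus-T it had 236 and 324 without trauma and 109 to 184 with trauma (interaction -2.81 ± 0.44, adjusted p = 0.00329). Both genes were lowest in Res-T without trauma and highest in Sus-T without trauma. Exons of Gng2, of Dlgap1 and of the genes Evl and Tuba1b named below overlap transcripts on the other strand, with the limit stated for Unc5c, which also holds for Adamts4, Sorbs2, Kcna6, Gab1, Ncoa3 and Grin2b. Exons of Tuba1b overlap Gm49450 on the same strand as well, which counting by strand would not separate.

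Further leading negative genes had a range of roles. Evl, a regulator of actin filament growth, had an interaction of -2.22, Efhd2, a calcium-binding actin regulator, -2.25, and Tuba1b, an alpha-tubulin, -1.83. Ppm1e, a phosphatase that inactivates CaM kinases, had -1.95, and Chst11, which sulfates chondroitin, -1.97. All 5 rose with trauma in Res-T, by 2.47-fold to 3.51-fold (adjusted p from 0.00348 to 0.0131), and none passed in Sus-T (log2 from -0.94 to -0.40). Of 38 genes of microtubules, tubulins and motors 4 were negative (Tuba1b, Tubb5, Tubb2a and Tuba4a, all tubulins) and 2 positive (Map7 and Stmn4), with a median of -0.29. These were 15.8% of the list, against 6.74% of all genes. Of 50 genes of actin and spine remodelling 3 were negative, Basp1, Evl and the Rac activator Tiam1 (-1.88), and 1 was positive, the ephrin Efnb3 (2.21), with a median of -0.14. That is 8% called, near the 6.74% of all genes, and no result about the list.

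At the postsynaptic density 10 of 30 genes were negative and 0 positive, against 1.98% and 4.76% of all genes, with a median of -0.75. With trauma in Res-T 10 of the 30 rose, against 3.3% of all genes. Dlg4, which encodes the scaffold PSD-95, had 162, 116 and 154 in Res-T without trauma and 356, 231, 388 and 421 with trauma. Its Sus-T libraries had 846 and 1077 without trauma and 1177, 579, 596 and 554 with trauma. Dlg4 stayed higher in Sus-T than in Res-T in all libraries (interaction -1.72 ± 0.40, adjusted p = 0.0167), although the difference with trauma did not pass (log2 1.02, adjusted p = 0.115). Dlgap1, which links PSD-95 to Shank proteins, had -1.82 ± 0.31 (adjusted p = 0.00463), and the scaffold Shank2 had -2.62. Further members called were Sorbs2, Iqsec2, Dlgap4, Cnksr2, Psd and Sipa1l1, from -1.95 to -1.31.

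On the presynaptic side 5 of 31 genes of the active zone and synaptic vesicles were negative and 2 positive (median -0.54). That is 22.6% called, against 6.74% of all genes. Snap91, a clathrin assembly protein, had 226, 234 and 227 in Res-T without trauma and 427, 339, 409 and 439 with trauma. Sus-T libraries had 843 and 797 without trauma and 497, 500.1, 514 and 558 with trauma. The groups of Snap91 did not overlap, with Sus-T above Res-T both without and with trauma (interaction -1.47 ± 0.23, adjusted p = 0.00329). The difference of Snap91 with trauma did not pass (log2 0.36, adjusted p = 0.331). Vamp2, the vesicle SNARE of neurons, had -1.36, and the vesicle protein Syn1 had -1.28. The positive members were Syt11 (0.91) and Sypl (0.89). Bsn, a giant scaffold of the active zone, had 83.5, 99.8 and 78.0 in Res-T without trauma and 314, 385, 233 and 169.8 with trauma. Its Sus-T values were 1034 and 1729 without trauma and 1329, 580.4, 1181 and 529.8 with trauma, all above Res-T (interaction -2.27 ± 0.50, adjusted p = 0.0129). For Bsn the difference with trauma did not pass (log2 1.66, adjusted p = 0.0724). The 250 bases before its RefSeq start site (GRCm38.p6, chr9:108190384-108190633, minus strand) are shown because they hold, in capitals, 2 matches to the motif of the factor NRF1, the first beginning 148 bases before the start, 5′ to 3′.
Bsn: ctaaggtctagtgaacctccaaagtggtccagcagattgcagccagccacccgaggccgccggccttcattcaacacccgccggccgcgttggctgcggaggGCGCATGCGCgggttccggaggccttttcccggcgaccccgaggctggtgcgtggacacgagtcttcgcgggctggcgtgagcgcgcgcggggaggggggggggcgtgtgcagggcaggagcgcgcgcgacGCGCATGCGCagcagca

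Of 18 kinase, kinase inhibitor and calmodulin genes 5 were negative and 0 positive, against 1.98% and 4.76% of all genes, with a median of -1.02. With trauma in Res-T 7 of 18 rose, against 3.3% of all genes. Camk2a, the alpha subunit of CaMKII, had 55.3, 77.3 and 68.4 in Res-T without trauma and 421, 835, 238 and 436 with trauma. Its Sus-T values were 1656 and 2965 without trauma and 3974, 1138, 2306 and 762 with trauma. The Res-T libraries without trauma were the low ones, and the Sus-T libraries with and without trauma overlapped. The interaction was -3.10 ± 0.73 (adjusted p = 0.0236), with a 6.50-fold rise with trauma in Res-T (adjusted p = 0.01) and -0.40 in Sus-T (adjusted p = 0.852). The interaction of Camk2a did not pass without the trend and robust options (adjusted p = 0.0529) or with the oligodendrocyte covariate (0.131). It also did not pass without Res-T without trauma replicate 1, Sus-T without trauma replicate 1 or 3, Res-T with trauma replicate 1 or Sus-T with trauma replicate 2 (adjusted p from 0.0522 to 0.0898), and over all alternatives it lay between -5.42 and -2.68. Prkce, a protein kinase C, had -1.57, the calmodulin gene Calm3 -1.03, and Camk1d -1.55.

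Receptor and channel genes were called in both directions. Of 21 ionotropic glutamate receptor genes and auxiliary proteins 3 were negative, the kainate receptor subunit Grik5 (-1.17), Shisa7 (-1.51) and the NMDA receptor subunit Grin3a (-1.58), and 1 was positive, the AMPA receptor subunit Gria4 (1.39 ± 0.31, adjusted p = 0.0137). That is 19.0% of the list, against 6.74% of all genes. Gria4 had 339, 564 and 469.5 in Res-T and 209.7 and 216 in Sus-T without trauma, and 256 to 359 in Res-T and 326 to 445 in Sus-T with trauma. It thus ran opposite to the other called members. Grin2b, an NMDA receptor subunit central to fear memory, had an interaction of -0.92 ± 0.69 that did not pass (adjusted p = 0.458). Its Sus-T libraries with trauma spread from 398 to 1574. Among 26 potassium channel genes Kcnma1, the large-conductance calcium-activated channel (-1.79), Kcnc1 (-1.80) and Kcnip3 (-1.39) were negative and the axonal channel Kcna6 (1.01) was positive. These were 15.4% of the list, against 6.74% of all genes. Of 9 GABA receptor genes, 5 metabotropic and monoamine receptor genes and 16 sodium, calcium and HCN channel genes, 0 were called, with medians of -0.70, -0.94 and -0.75. Among 11 endocannabinoid genes Dagla, which makes the endocannabinoid 2-AG, was negative (-1.76, adjusted p = 0.0448). At 9.09% of the list against 6.74% of all genes, this is no result about the list.

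Genes of cytosolic ribosomal proteins and of the respiratory chain showed the same direction as the synaptic lists. Of 67 cytosolic ribosomal protein genes 24 were negative and 0 positive, 65 had negative estimates, and the median was -1.14. The called share was 35.8%, against 6.74% of all genes. In Res-T 55 of the 67 rose with trauma, against 3.3% of all genes, with a median log2 difference of 1.07. In Sus-T 0 were called, with a median of -0.07. Rps20 had 199, 238 and 227 in Res-T without trauma and 397, 533, 727 and 467 with trauma. Its Sus-T libraries had 777 and 838 without trauma and 1000.3, 624, 399 and 536 with trauma (interaction -1.64 ± 0.39, adjusted p = 0.0185). The Res-T libraries without trauma were below the other 10. As a share of the library total, the list made up 0.490% ± 0.0307 (SD, n = 3) in Res-T without trauma and 1.38% ± 0.0891 (n = 2) in Sus-T without trauma. With trauma it made up 1.08% ± 0.250 (n = 4) in Res-T and 1.32% ± 0.202 (n = 4) in Sus-T. Ribosomal protein genes have many near-identical pseudogene copies, and reads may be divided among them.

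Nuclear-encoded genes of oxidative phosphorylation, which build the respiratory chain, had 9 negative genes of 68 and 0 positive (median -0.82). The called share was 13.2%, against 6.74% of all genes. With trauma in Res-T 21 of the 68 rose, against 3.3% of all genes. Ndufv2, a subunit of complex I, had -1.46, and Cox6b1, a subunit of cytochrome oxidase, had -1.86. Cox6b1 was 61.6, 60.8 and 60.8 in Res-T without trauma and 106, 289, 205 and 118 with trauma, and in Sus-T 241 and 175 without trauma and 253, 137, 102 and 148 with trauma. Only the Res-T libraries without trauma stood apart from the rest. Mitochondrial ribosomal (0 of 66), proteasome (0 of 38) and heat shock and chaperone genes (0 of 67) had no calls, with medians of -0.24, -0.24 and -0.05. Among 55 translation factors Eif3f was negative (-1.37, adjusted p = 0.0334), or 1.82% of the list against 6.74% of all genes.

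The lists of activity, stress hormone, neurotrophin and chromatin genes were called at shares near or below the 6.74% of all genes, which is no result about their members. Of 10 activity-induced early genes 0 were called, all had negative estimates and the median was -0.89. Arc, which moves to active synapses, had 952, 648 and 417 in Res-T without trauma and 587, 885, 1016 and 587 with trauma. The Sus-T values were 1058 and 739 without trauma and 707, 591, 661 and 590.1 with trauma. The phenotypes overlapped both without and with trauma, and in Sus-T the libraries without trauma lay above those with trauma (interaction -0.71 ± 0.38, adjusted p = 0.28). In the glucocorticoid and stress list 1 of 14 genes was called, the nuclear receptor coactivator Ncoa3 (1.18). The glucocorticoid receptor Nr3c1 had 0.65 ± 0.24 (adjusted p = 0.115) and its cochaperone Fkbp5 -1.17 ± 0.79 (adjusted p = 0.404). Fkbp5 varied widely between replicates, with 79.6, 196 and 19.4 in Res-T without trauma. Of 31 neurotrophin, CREB and MEF2 signalling genes Mef2c was negative and the adaptor Gab1 positive (1.58). Among 67 chromatin regulators 3 were positive, the remodeller Chd7 (1.21), the acetyltransferase Kat2b (1.93) and the DNA demethylase Tet1 (1.004), and the median was 0.20.

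**Figure D3:**
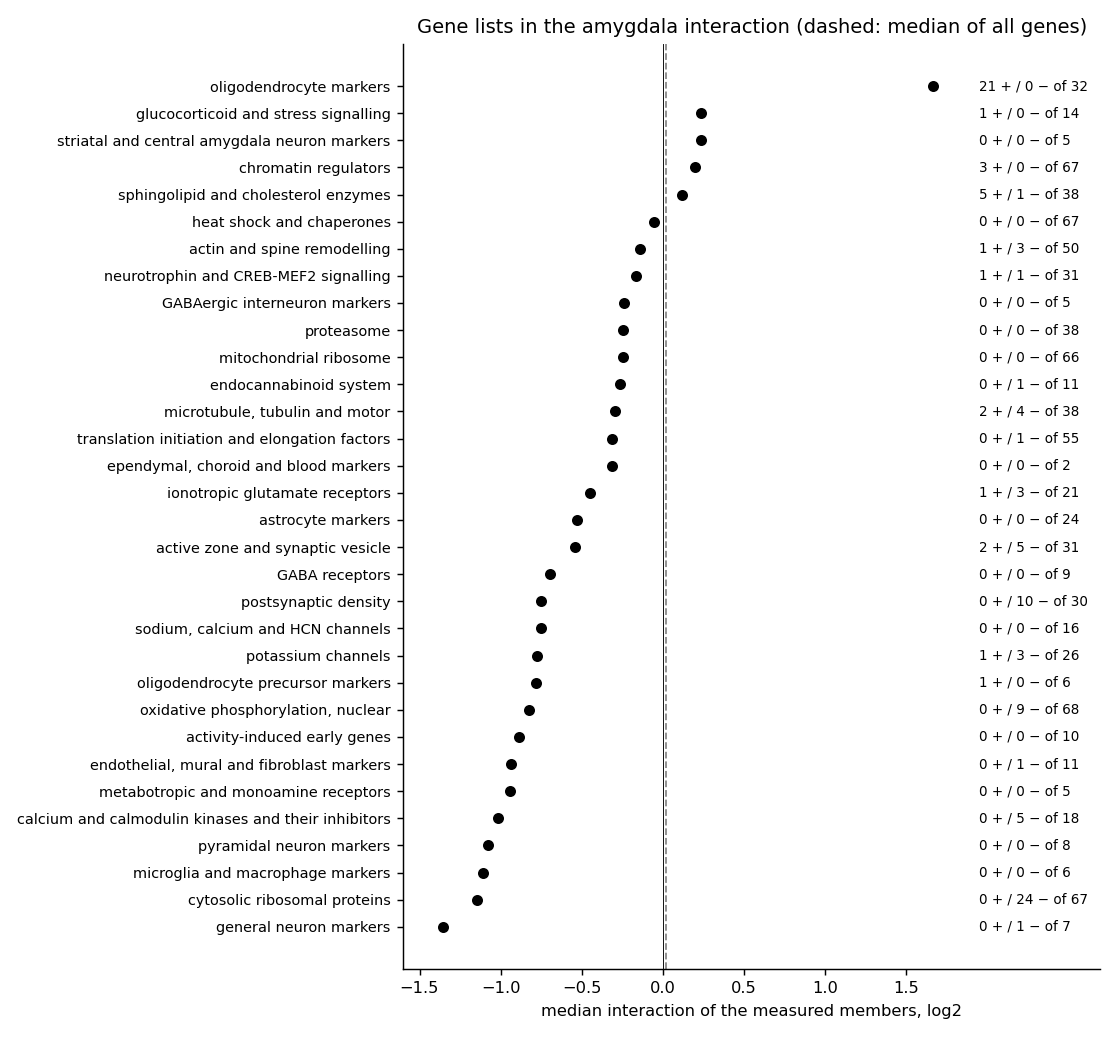
Median interaction (log2, horizontal axis) of the measured members of 32 gene lists; the text at the right gives the members called positive and negative of those measured, and the dashed line is the median of all genes. Oligodendrocyte markers lie furthest right at 1.67, and general neuron (-1.35), cytosolic ribosomal (-1.14), microglia (-1.11) and pyramidal neuron (-1.08) lists lie furthest left.

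Markers of several but not all cell types moved with these groups of genes, and their part in the result was not tested beyond the covariate fit described next. The summed share of the 32 oligodendrocyte markers was 7.73% to 9.05% of the library in Res-T without trauma and 2.53% and 3.66% in Sus-T without trauma. With trauma it was 5.84% to 7.97% in Res-T and 5.01% to 6.33% in Sus-T. Shares of the 8 measured pyramidal neuron markers ran the other way, with a mean of 0.0465% ± 0.00414 (SD, n = 3) and 0.136% ± 0.00926 (n = 2) without trauma in Res-T and Sus-T, and 0.0801% ± 0.00642 (n = 4) and 0.132% ± 0.0567 (n = 4) with trauma. Astrocyte markers had shares of 0.862% to 1.06% in Res-T and 2.12% and 3.60% in Sus-T without trauma, and 1.12% to 1.82% and 1.58% to 2.98% with trauma. All 8 pyramidal and all 7 measured general neuron markers had negative estimates (medians -1.08 and -1.35). Of these 15 genes Eno2, a glycolytic enzyme of neurons, was called (-1.95), a share near the 6.74% of all genes. Other neuron markers were mixed and 0 were called. Of 5 GABAergic interneuron markers 3 had negative estimates (median -0.24), and of 5 striatal and central amygdala markers 2 had (median 0.24). Of 24 astrocyte markers 0 were called (median -0.53) and of 6 microglia markers 0 (median -1.11). Of 11 endothelial, mural and fibroblast markers 1 was called, Col1a2 (-2.72), or 9.09% against 6.74% of all genes. A lower share of a cell type and less RNA per cell of that type cannot be told apart in sorted bulk samples.

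The mean level of the oligodendrocyte markers was also entered into the model as a covariate. With it, 2 genes were called, Srp54c and a model of Zc3h11a, in place of 665. The estimates kept their sign in 610 of the 665 genes, with a median size of 1.16 against 1.53. Median interactions were then -2.03 for cytosolic ribosomal proteins and -0.92 for the postsynaptic density, and 0.08 for the oligodendrocyte markers themselves. The markers differed between the 4 groups as strongly as the genes did, so their contribution and that of the groups cannot be told apart in 13 libraries. Kat2b and Fa2h changed direction, to -0.30 and -0.23.

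**Figure D4:**
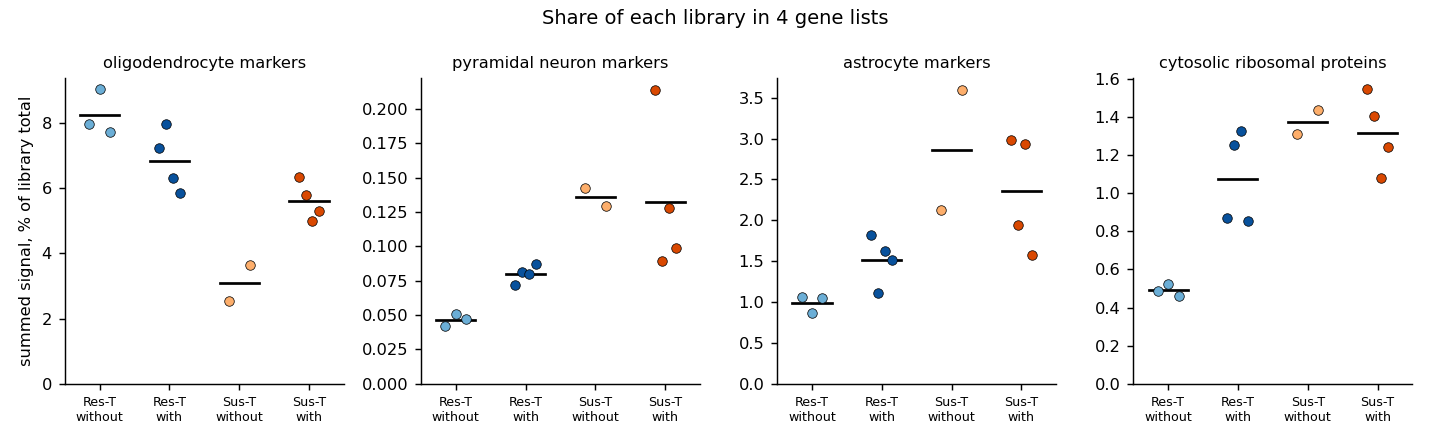
Summed signal of 4 gene lists as percent of the library total (vertical axes start at 0), with 1 point per library and bars for group means. Oligodendrocyte markers are highest in Res-T without trauma (7.73% to 9.05%) and lowest in Sus-T without trauma (2.53% and 3.66%), and the group means of the other 3 lists are lowest in Res-T and highest in Sus-T without trauma.

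Some properties of the transcripts went with the direction of the interaction. Median transcript length was 4699 bases for the positive, 3764 for the negative and 3750 for all genes, and median GC content 47.1%, 52.9% and 48.8%. The share of positive genes was 1.77% in the shortest and 8.46% in the longest of 5 equal bins of transcript length. For negative genes it was 1.06% in the bin lowest in GC and 3.44% in the highest. The part of length and base composition in the result was not tested.

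Promoters were searched on both strands for a fixed set of motifs, none of which contains another. RefSeq promoters of 300 bases (250 before and 50 after the start) were matched by symbol for 358 positive, 141 negative and 7718 of all genes. The EGR motif GCGTGGGCG seen in Prickle1 was present in 2.23%, 1.42% and 1.32% of these, and the NRF1 motif shown in capitals for Bsn in 0.559%, 2.13% and 2.19%. The cyclic AMP response element TGACGTCA had 2.79%, 3.55% and 3.36%, and the E-box CACGTG 9.22%, 6.38% and 10.2%. The motifs of MEF2, of the serum response element and of the glucocorticoid response element were found in 0 promoters of called genes, and in 6, 2 and 0 of the 7718. A match is a match of letters only.

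Zc3h11a had the most positive interaction of all genes, and its value is uncertain. On chromosome 1 the symbol is carried by models that overlap, and reads can be divided among them. ENSMUSG00000116275.1 had an interaction of 7.52 (adjusted p = 3.1e-09), with 2.22 and 1.82 in Sus-T without trauma and 130.3 to 456 in all other libraries. For ENSMUSG00000102976.6 the interaction was -0.40 (adjusted p = 0.628), and for the sum of the models 1.004. Srp54c has the near-identical copies Srp54a and Srp54b, and reads can be divided among these as well. The interaction of Srp54c was 0.59 without the covariate (adjusted p = 0.605 in limma) and 4.33 with it. Summed over the Srp54 models it was 0.45 without the covariate, and the sum was not fitted with the covariate.

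The same contrast in the medial prefrontal cortex, over 13 libraries and 6080 genes, called 0 genes in limma (0%; 371 genes, 6.1%, at an unadjusted p below 0.05, and a smallest adjusted p of 0.774). Of the genes called in the amygdala 356 were measured there, 298 positive and 58 negative. Their median prefrontal interactions were -0.56 and 0.67, opposite in sign to the amygdala, while all prefrontal genes had a median of 0.115. Ccp110 had -0.51 in the prefrontal cortex, Tmem88b -1.48, Mef2c 2.17 and Gng2 1.73, none of which passed. The median standard error was 0.43 for amygdala genes and 0.52 for prefrontal genes. The difference between the regions was not tested, because their tables may have been normalized separately.

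With 1 library left out, the count of called genes fell most without Sus-T replicate 1 or a Res-T library of the condition without trauma. Without Sus-T replicate 3 of that condition it fell less, and the share of positive genes rose. Without Sus-T replicate 1 of that condition 59 genes were called, 40 positive and 19 negative, where the spread of the single remaining Sus-T library was taken from the other groups. All 665 estimates kept their sign there, and of the 48 named genes that had been called 23 were still called. Basp1 (-2.26, adjusted p = 0.0244) and Ccp110 (1.79, adjusted p = 0.0244) were among them, and Camk2a (-3.52, adjusted p = 0.0793) and Opalin (1.66, adjusted p = 0.0644) were not. Without replicate 1, 2 or 3 of Res-T without trauma 340, 340 and 379 genes were called. The counts for trauma within a phenotype also moved when single libraries were left out. In Res-T 101, 142 and 163 genes were called without replicate 1, 2 or 3 without trauma, and 322 without replicate 3 with trauma, against 610. In Sus-T 1 and 287 were called without replicate 1 or 3 without trauma, and 31 without Res-T with trauma replicate 2, against 3. Sus-T minus Res-T without trauma called 1565 without Sus-T replicate 1, against 2706. The list counts moved as well. Of the 67 ribosomal protein genes 0 were called without either Sus-T library without trauma and 4 or 5 without a Res-T library without trauma, against 24, while the list median stayed between -1.38 and -1.0 over all alternatives but the covariate. Of the 32 measured oligodendrocyte markers 3 were called without Sus-T without trauma replicate 1 and 16 to 25 when any other library was left out, against 21. Of the 30 postsynaptic density genes 1 was called without that library and 2 to 12 when any other was left out, against 10. For ribosomal protein genes, leaving out Res-T with trauma replicate 3 gave 7 calls, Sus-T with trauma replicates 2, 3 or 4 gave 13, 9 and 9, and Sus-T with trauma replicate 1 gave 41. Leaving out 1 of the libraries without trauma gave 0 to 2 calls among the 68 oxidative phosphorylation genes, against 9, and 0 or 1 among the 18 kinase and calmodulin genes, against 5. Without the trend and robust options of limma 366 genes were called, 0 of them ribosomal.

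**Figure D5:**
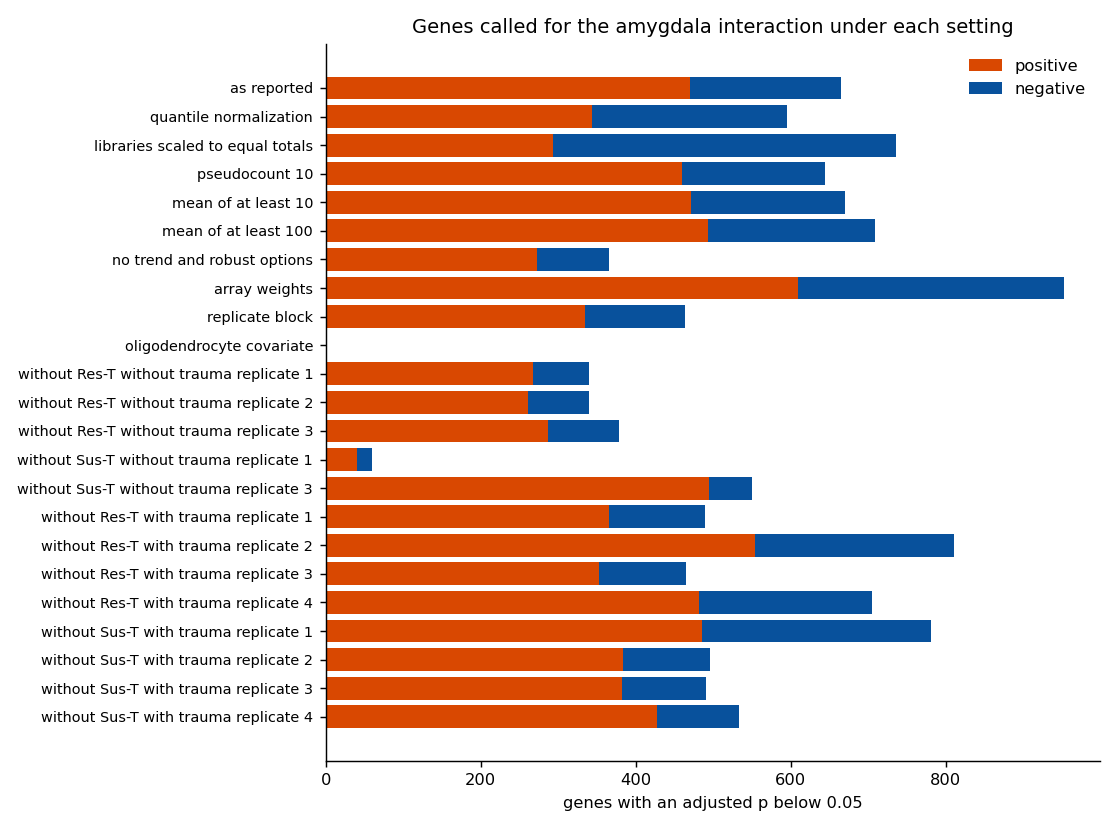
Number of genes called for the amygdala interaction (horizontal axis, adjusted p below 0.05) under each setting, split into positive and negative. The bar without Sus-T without trauma replicate 1 reaches 59 and that with the oligodendrocyte covariate 2, against 665 as reported, and scaling to equal totals turns the split from 470 positive and 195 negative to 293 and 443.

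The split between positive and negative genes depended on the scaling of the libraries. Under quantile normalization 595 genes were called, 344 positive and 251 negative (57.8% positive against 70.7% as reported). With libraries scaled to equal totals 736 were called, 293 positive and 443 negative (39.8% positive), and the median of all genes was -0.21 against 0.02. The 665 genes kept their sign under both, and 508 and 488 of them were called again. Oligodendrocyte markers were then positive in 16 and 19 of 32 and ribosomal protein genes negative in 31 and 45 of 67.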

How the data were processed

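Sorted amygdala cells from 4 groups were profiled by RNA sequencing. Per the submitters' processing notes, bcl2fastq 2.20, Salmon 1.2 and GRCm38.p6 were used. The deposited values are a signal in arbitrary units, and how the authors scaled them is not given in the sources used here. They are never below 1.26, and the read depth is unknown. Columns were joined by gene identifier, and repeated columns of a library held equal values. Symbols and coordinates came from GENCODE M21 (GRCm38), matched for 9871 of 9872 identifiers. A filter on a mean of at least 1 removed no gene. log2(value + 1) was fitted with 4 groups in limma 3.58.1 (R 4.3.3) with the trend and robust options (9 residual and a median of 8.32 prior degrees of freedom). Fold changes are on the log2(value + 1) scale, ± is the standard error of a log2 difference or the SD of a mean, and p-values were adjusted over all genes (Benjamini-Hochberg, threshold 0.05).

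Named genes were the 10 positive and 10 negative genes with the smallest p (predicted genes, pseudogenes and symbols with several models excepted), up to 2 called members of each of 32 gene lists, and 14 preselected genes. Further called list members are named to complete small counts, after their values were seen. The members and lists were chosen with earlier results of these data known, so no list is independent evidence. Patterns that had drawn in genes outside a list's family were narrowed after the values were seen. The fit was tested on simulated data in which 200 of 9872 genes were changed in Sus-T with trauma. It recovered 8% of the 2-fold and 57% of the 4-fold changes, with 0 wrong signs and 3 false calls. A gene that was not called may therefore still have an interaction. Some named or called genes are not reported here. Alternatives were other scalings, pseudocounts, filters, variance options, library weights, a replicate block, an oligodendrocyte covariate and leaving out each library.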

Additional observations from a re-analysis of the deposited data

Results flagged for a closer look

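In groups of 4 libraries, a library was marked when its gap to the nearest other exceeded Dixon's critical value. Over 174 such groups of named genes and list shares 10 libraries were marked, and chance marks about 5 in 100 groups. In Sus-T with trauma these were Basp1 in replicate 2 (305 against 349 to 357), Ppm1e in replicate 3 (232 against 168 to 176), Gab1 in replicate 2 (1837 against 1538 to 1567), Rpl10a in replicate 1 (495 against 312 to 322) and Dlg4 in replicate 1 (1177 against 554 to 596). In Res-T with trauma they were Tuba1b in replicate 2 (1199 against 642 to 697) and Nr3c1 in replicate 4 (1303 against 985 to 1035). Among list shares in Res-T with trauma, replicate 4 was high for microtubule genes (2.19% against 1.82% to 1.88%), and replicate 2 was low for chromatin regulators (0.905% against 1.13% to 1.15%) and high for the 2 ependymal and choroid markers (0.0057% against 0.00168% to 0.00177%). The trauma difference itself differed between Sus-T and Res-T in 665 genes by limma's interaction test, as the report describes.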

How the results depend on the processing

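Of 1186 interaction values of named genes over 22 alternatives 1184 kept their direction, and the exceptions were Kat2b (-0.30) and Fa2h (-0.23) with the oligodendrocyte covariate. Where a count moved by over 1.5 times the cause was not tested. Interaction counts (positive and negative) were 366 (273 and 93) without the trend and robust options, 2 (2 and 0) with the oligodendrocyte covariate, 293 positive and 443 negative with equal totals, and 343 negative with array weights, whose estimation stopped before it converged. Leaving out 1 library gave 59 to 810 genes, 40 to 554 positive and 19 to 295 negative. The replicate block gave 463 genes with 129 negative (Camk2a at an adjusted p of 0.0765) and, with trauma, 10 genes for Sus-T against Res-T. Of the same-numbered pairs 3 of 16 correlated above 0.1 (-0.45 to 0.16), and 2 of 13 libraries correlated best with their own number. Deviations were taken from means of small groups, and variation is missing from the values. The correlations therefore cannot tell whether replicate numbers pair the libraries. Trauma in Res-T called 339 genes without trend and robust options, 1389 with array weights and 101 to 724 with 1 library left out. Trauma in Sus-T called 28 under quantile normalization, 16 with equal totals, 18 with a pseudocount of 10, 17 and 43 with means of at least 10 and 100, 1 with the covariate and 1 to 287 with 1 library left out. Sus-T against Res-T without trauma called 71 with the covariate and 1565 to 3190 with 1 library left out. With trauma it called 2 under quantile normalization, a pseudocount of 10 and both filters, 1 with equal totals, 36 with array weights, 4 with the covariate and 0 to 12 with 1 library left out. The prefrontal interaction called 0 to 12 with 1 library left out. Precision is limited by 2 Sus-T libraries without trauma, by an unknown depth and by variation missing from the deposited values.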

Other observations

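Trauma in Sus-T called 3 genes, of which Gm28635 had no called interaction and Apod had one. Gm28635, a predicted gene, fell with trauma in Sus-T (log2 difference -5.66, adjusted p = 0.000321 in limma) and in Res-T (-4.88, adjusted p = 0.000444), from group means of 164 and 117 without trauma to 2.01 in both with trauma. Apod, a lipid carrier made by glia, rose in Sus-T (1.41, adjusted p = 0.0465), from a mean of 706 ± 261 (SD, n = 2) to 1850.2 ± 473 (n = 4). In Res-T its means were 2766 ± 371 (n = 3) without and 2274 ± 216 (n = 4) with trauma (adjusted p = 0.456).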
